A study of Homo sapiens with 24 samples.

Results

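Hypoxia was compared with normoxia in HCT116 colon cancer cells carrying an estrogen receptor beta transgene and grown without estradiol. The comparison took the 3 arrays of hypoxic ESR2 cells without estradiol against the 3 arrays of normoxic ESR2 cells without estradiol, 6 of the 24 arrays measured, chosen by their sample titles and by no measured value. HCT116 is an established human colorectal carcinoma line. The ESR2 cells were a puromycin-selected (1 µg/ml) lentiviral pool, not a single clone, that expressed full-length ESR2 with an N-terminal HaloTag, and over 80% of the cells were GFP-positive. Their parental cells lacked the transgene, and no array is labelled as a line with an empty vector. Hypoxic cells were kept in an incubator flushed with 94% N2 and 5% CO2, whereas neither the length of the exposure nor the medium of the untreated groups is stated in the sources used here. The other groups used for comparison were hypoxic and normoxic parental cells without estradiol, and hypoxic and normoxic ESR2 cells with 10 nM estradiol, each with 3 arrays. All RNAs had integrity numbers between 8.5 and 10 according to the labels. Since no label says whether the 3 samples of a group came from separate cultures, each p-value reflects only how these samples vary, which could be technical variation.

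Cells sense oxygen mainly through prolyl hydroxylases (the EGLN enzymes), which mark the alpha subunits of hypoxia-inducible factors (HIF) for destruction by the VHL ubiquitin ligase when oxygen is present. When oxygen falls, HIF-alpha pairs with ARNT, binds hypoxia response elements and raises genes for glucose uptake, glycolysis, angiogenic peptides and collagen hydroxylation, along with EGLN genes that feed back on the pathway. Estrogen receptor beta, the product of ESR2, is a ligand-activated nuclear receptor that is the main estrogen receptor of the colon epithelium.

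The ESR2 signal was higher in the transduced cells but dim. The brightest ESR2 probe set read 4.89, 4.03 and 4.63 on the normoxic ESR2 arrays and 3.35, 3.54 and 3.52 on the normoxic parental arrays (log2 signal, here and below unless stated otherwise), so the groups did not overlap (1.05, adjusted p = 1.1e-05 over all probe sets, limma), and 4 of 8 ESR2 probe sets were higher by 0.93 to 1.36. The positions of the probe sets in the transcript were not analysed here. In hypoxic ESR2 cells the same probe set read 4.08, 3.96 and 4.17, which overlapped the normoxic range. Its change was -0.44 ± 0.13 on the log2 scale (estimate ± standard error, as in all such pairs below, adjusted p = 0.012, limma), and the call was lost in 5 alternatives, among them the fit of only the groups compared and the fits without hypoxia replicate 2 or normoxia replicate 1 or 3. ESR1, the other classical estrogen receptor, stayed between 3.70 and 4.05 on all 6 arrays (change -0.06 ± 0.09, adjusted p = 0.68).

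The first principal component of the 6 arrays carried 74.6% of the variance and separated the oxygen conditions. Hypoxia replicate 3 lay nearest to normoxia on it. The mean gap between 3′ and 5′ control probe sets (ACTB, dap and thr), a sign of RNA and labelling quality called the 3′-5′ index here, ran from 2.00 to 2.19 in hypoxic and from 2.28 to 3.10 in normoxic ESR2 cells, so it too separated the conditions. A fit that carried the index as a covariate called 2978 genes higher and 3100 lower. It kept 5166 of the 5940 calls of the main fit given below, in the same direction, and lost the others. Beyond that, the part of the index in the results was not tested. Parental normoxia replicate 2 stood apart, with an index of 4.34 against 2.60 and 2.65 for the other two, and so did the 3 hypoxic ESR2 arrays with estradiol (3.42 to 4.01). Of 12 colon epithelial markers, 5 were below a log2 signal of 5 in both conditions, among them VIL1 and CEACAM6, while EPCAM read 11.2 to 11.3 on all 6 arrays. All 12 fibroblast markers, 10 of 11 leukocyte markers and 7 of 8 endothelial markers were below 5 in both conditions. In such bulk samples, fewer cells of a type and less RNA per cell cannot be told apart.

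In the 18239 genes tested, 5940 differed between hypoxic and normoxic ESR2 cells (adjusted p below 0.05, limma), which is 32.6% of the genes. Of these, 2620 (14.4%) were higher and 3320 (18.2%) were lower in hypoxia, so falls outnumbered rises. The order turned around among large changes. More than 2-fold rises numbered 225 (1.23%), whereas more than 2-fold falls numbered 93 (0.51%). The median change over all genes was -0.055, and the arrays of the conditions did not overlap for 43.2% of all genes, or 30.4% that were also called. The number of arrays, 3 per condition, limits the precision of each value.

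CXCR4, the receptor of the chemokine CXCL12, had the largest rise. It read 4.94, 4.69 and 4.57 in normoxia and 8.34, 8.25 and 8.05 in hypoxia, a fitted 11.2-fold increase (3.48 ± 0.11, adjusted p = 2.0e-16, limma), and all 4 of its probe sets rose. The hypoxia markers ANKRD37 and NDRG1 followed. ANKRD37 went from 6.64, 6.61 and 6.63 to 10.05, 9.91 and 9.86 (3.31 ± 0.08, adjusted p = 1.9e-18). NDRG1 went from 7.78, 7.49 and 7.72 to 11.06, 10.96 and 10.75 (3.26 ± 0.08, adjusted p = 1.9e-18). In all 3 genes the lowest hypoxic array lay above the highest normoxic one, which the choice of genes required. Next came DDIT4, an inhibitor of mTORC1, at 3.14 ± 0.14 and adrenomedullin (ADM), a vasodilator peptide, at 3.11 ± 0.10. Matrix, cytoskeleton and signalling genes were also among the 25 largest rises: the actin-nucleating subunit ARPC3 (2.38 ± 0.12), the matricellular protein CCN1 (2.35 ± 0.15), the collagen chaperone SERPINH1 (2.07 ± 0.12), the G-protein regulator RGS4 (2.00 ± 0.13) and the hyaluronan synthase HAS3 (1.96 ± 0.12). GOLGA8A (2.38 ± 0.13) and the histone gene H2BC5 (2.31 ± 0.11) belong to families of near-identical copies whose signals the probe sets may not separate.

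CXCL10, an interferon-induced chemokine, fell the most. Its arrays read 6.57, 6.71 and 6.24 in normoxia and 4.69, 4.35 and 4.16 in hypoxia, a fitted 4.31-fold decrease (-2.11 ± 0.13, adjusted p = 3.1e-11, limma). MAL2, a transcytosis protein of polarised epithelia, read 7.62, 7.96 and 7.40 in normoxia and 5.99, 5.98 and 5.29 in hypoxia (-1.91 ± 0.17, adjusted p = 5.4e-09). The interferon-induced IFIT2 fell by 1.82 and the cystine transporter SLC7A11 by 1.56. Mitochondrial MTHFD2L, a folate enzyme, fell by 1.52, the endosomal tether EEA1 by 1.50 and the cohesin loader NIPBL by 1.35. RPL27A fell by 1.88 on its single probe set, and processed copies of ribosomal protein genes may share its signal. UHMK1 had a wide normoxic spread (6.87, 5.53 and 5.74), and its fall of 1.47 carried a standard error of 0.28.

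**Figure D1:**
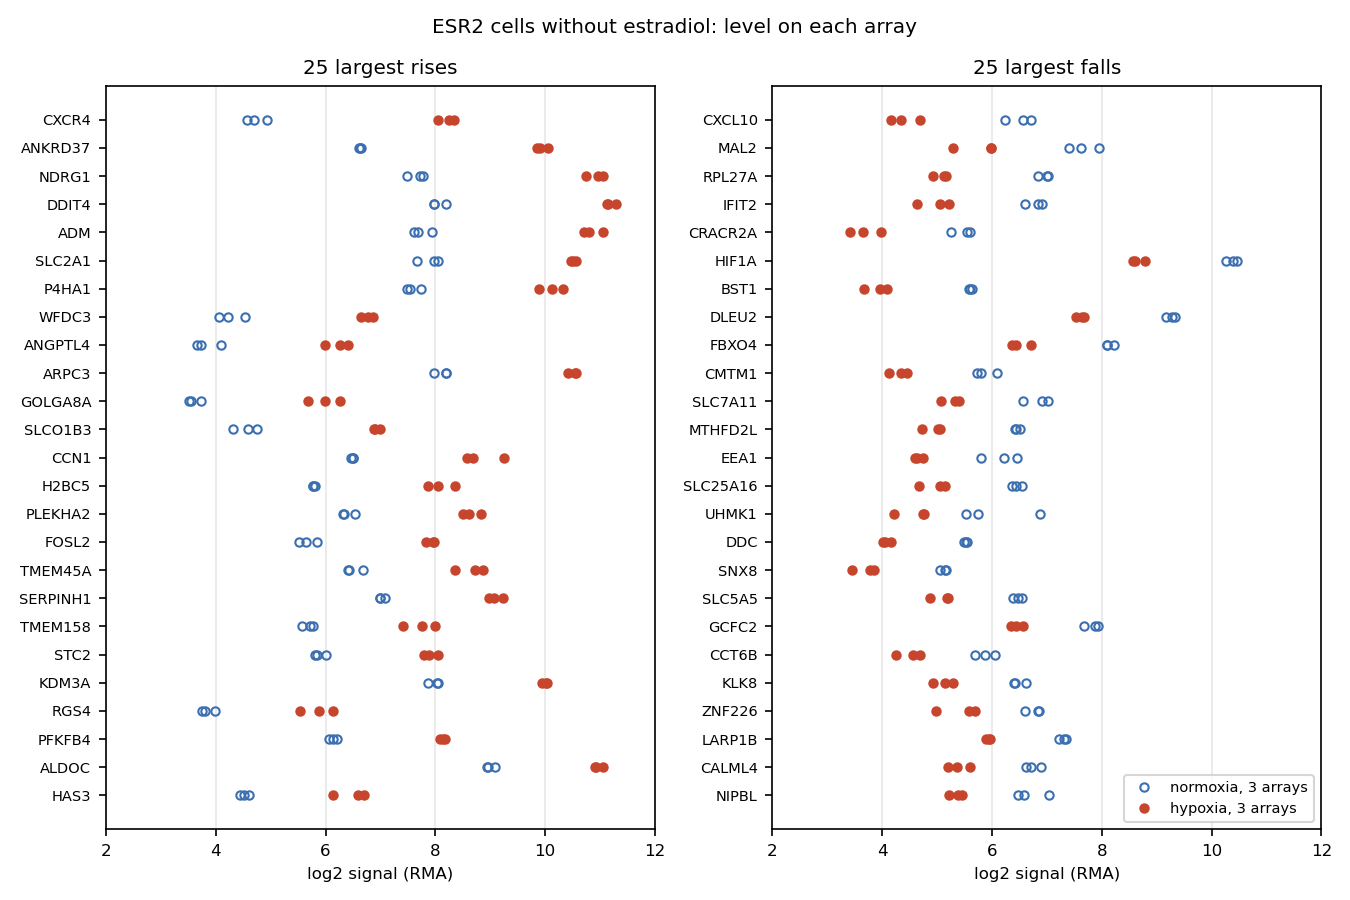
Log2 signal of the 25 genes that rose most and the 25 that fell most in ESR2 cells without estradiol, each array as a point (open blue, 3 normoxic arrays; filled red, 3 hypoxic arrays). The genes were chosen for non-overlapping arrays and the size of their change, so the gaps between colours describe the choice. CXCR4 moved from under 5 to over 8, and UHMK1 shows 1 normoxic array apart from the other two.

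The genes of the oxygen-sensing pathway itself did not move as 1 block: of 17 members measured, 7 rose, 3 fell and 7 were not called. HIF1A, which encodes the inducible alpha subunit, had the largest change of the list and it was a fall. It read 10.39, 10.47 and 10.27 in normoxia and 8.56, 8.79 and 8.60 in hypoxia, a 3.30-fold decrease (-1.72 ± 0.09, adjusted p = 1.4e-12, limma). All 8 HIF1A probe sets fell by more than 2-fold, with changes from -2.24 to -1.56. EPAS1, which encodes HIF-2alpha, rose instead, from 6.69, 6.40 and 6.68 to 7.62, 7.36 and 7.20 (0.81 ± 0.09, adjusted p = 2.8e-07). The partner ARNT rose by 0.31 ± 0.08, and HIF3A read -0.05 ± 0.09 (adjusted p = 0.68).

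Among the hydroxylases, EGLN1 (PHD2, the main oxygen sensor) rose by 1.31 ± 0.10 and EGLN3 by 1.03 ± 0.11, both known HIF targets. EGLN1 read 9.28, 9.07 and 8.90 in normoxia and 10.44, 10.47 and 10.25 in hypoxia. EGLN3 stayed dim, with no hypoxic array above 4.72. EGLN2, the third prolyl hydroxylase, fell by 0.50 ± 0.13. HIF1AN, the asparaginyl hydroxylase FIH that blocks HIF from its coactivators, rose from 6.28, 6.47 and 6.38 to 6.90, 6.83 and 6.77 (0.46 ± 0.07, adjusted p = 2.7e-05). The coactivator EP300 rose by 0.78 ± 0.15 and CITED2, which competes with HIF for EP300 and CREBBP, by 1.06 ± 0.18. VHL (0.33 ± 0.16, adjusted p = 0.12) and the ligase scaffold CUL2 (-0.20 ± 0.11, adjusted p = 0.17) were not called. The ligase adaptor ELOC fell by 0.16 ± 0.06, a call lost in 7 alternatives.

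**Figure D2:**
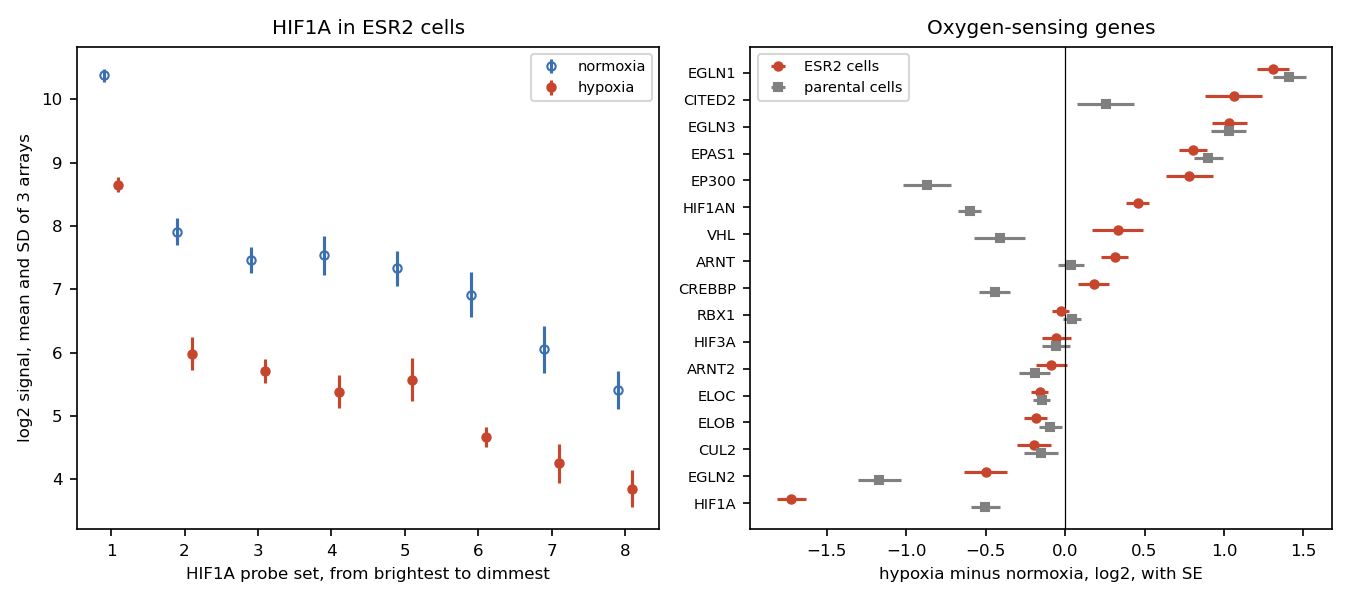
Left, mean and SD of log2 signal over 3 normoxic (blue) and 3 hypoxic (red) arrays for the 8 HIF1A probe sets in ESR2 cells, from brightest to dimmest. Right, hypoxia minus normoxia on the log2 scale with its standard error for 17 oxygen-sensing genes in ESR2 (red) and parental (grey) cells. HIF1A fell on every probe set, and EP300 and HIF1AN lie on opposite sides of 0 in the 2 cell types.

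The promoters of several genes that rose in hypoxia hold the HIF-binding core, and 6 of them are shown because the genes span the pathway's main branches. They were picked by hand among genes that held the core, whereas SLC2A1 and TMEM45A gave no match. The core was searched as ACGTG or GCGTG on both strands in the 250 bases before each RefSeq start site (GRCh38.p14), and its occurrences stand in capitals, also where they read CACGT or CACGC on the shown strand. The palindrome CACGTG holds the core on both strands and is also an E-box. Each stretch is 60 bases, printed 5′ to 3′ on the gene's strand.
ANKRD37, chr4:185396658-185396717, + strand: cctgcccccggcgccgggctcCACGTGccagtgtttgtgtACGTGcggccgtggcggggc
EGLN1, chr1:231422288-231422347, - strand: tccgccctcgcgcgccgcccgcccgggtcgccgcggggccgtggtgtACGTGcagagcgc
PGK1, chrX:78104022-78104081, + strand: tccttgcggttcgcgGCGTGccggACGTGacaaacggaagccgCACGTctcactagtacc
PDK1, chr2:172556030-172556089, + strand: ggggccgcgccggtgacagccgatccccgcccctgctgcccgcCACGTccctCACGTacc
P4HA1, chr10:73096921-73096980, - strand: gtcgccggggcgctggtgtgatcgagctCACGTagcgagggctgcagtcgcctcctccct
BNIP3, chr10:131982017-131982076, - strand: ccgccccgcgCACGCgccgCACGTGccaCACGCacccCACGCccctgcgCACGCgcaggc

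A core this short is common. At least 1 was found for 57.6% of the 14492 tested genes with a promoter in the table, for 64.4% of those that rose more than 2-fold and for 66.2% of those that fell more than 2-fold. The share was thus not higher in the large rises than in the large falls. Shares by gene also depend on the number of annotated start sites per gene. By promoter window, the share was 49.2% for the large rises, 53.5% for the large falls and 49.6% for all tested genes. The large rises were thus not above all tested genes by window. Of the 17 glycolysis genes 14 held a core (82.4%), but they have more annotated start sites per gene. Their share by window was 51.4%. These matches describe letters, not bound sites.

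Glucose handling moved almost entirely upwards. Of 17 glycolysis genes measured, 16 rose and 1 fell, with a median change of 0.81 against -0.055 over all genes. The glucose transporter SLC2A1 (GLUT1) went from 8.04, 7.67 and 7.98 to 10.47, 10.56 and 10.51, a 6.12-fold increase (2.61 ± 0.08, adjusted p = 2.0e-16, limma). The size of the rise differed along the pathway: the hexokinases HK2 and HK1 rose by 1.47 ± 0.07 and 1.25 ± 0.07, and glucose-6-phosphate isomerase (GPI) by 1.65 ± 0.07, whereas the triosephosphate enzymes TPI1 and GAPDH rose by 0.20 ± 0.06 and 0.18 ± 0.06. Both were among the brightest probe sets, with GAPDH at 12.51, 12.56 and 12.60 in normoxia. Isozymes also differed. Aldolase C (ALDOC) rose by 1.97 ± 0.06 and aldolase A (ALDOA) by 0.79 ± 0.08, enolase 2 (ENO2) by 1.71 ± 0.13 and enolase 1 (ENO1) by 0.55 ± 0.06. Among the phosphofructokinases PFKP rose by 0.85 ± 0.06 and PFKL by 0.25 ± 0.09, while the muscle isoform PFKM fell by 0.22 ± 0.05.

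Around the pathway, PFKFB4, which makes the phosphofructokinase activator fructose-2,6-bisphosphate, rose by 1.99 ± 0.09. Pyruvate dehydrogenase kinase PDK1, which shuts off the entry of pyruvate into the citric acid cycle, went from 6.88, 6.60 and 6.66 to 8.66, 8.76 and 8.44 (1.90 ± 0.09, adjusted p = 2.0e-13, limma). Its kin PDK3 rose by 0.69 ± 0.11. The mitochondrial pyruvate carrier MPC1 fell by 0.60 ± 0.09, and the pyruvate dehydrogenase subunits DLAT and PDHB fell by 0.61 ± 0.09 and 0.36 ± 0.06. Of the 17 genes in this list of glycolytic switches and pyruvate enzymes 4 rose, 5 fell and 8 were not called. Over all genes, 14.4% rose and 18.2% fell. Of 11 glycogen genes 6 rose, among them the branching enzyme GBE1 (1.22 ± 0.08), phosphoglucomutase PGM1 (0.91 ± 0.08) and the phosphorylase PYGL (0.61 ± 0.06), and glycogenin GYG1 fell by 0.30 ± 0.06. Carbonic anhydrase CA12, which acidifies the cell surface, rose by 1.26 ± 0.12, and none of the 10 genes of pH regulation fell.

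**Figure D3:**
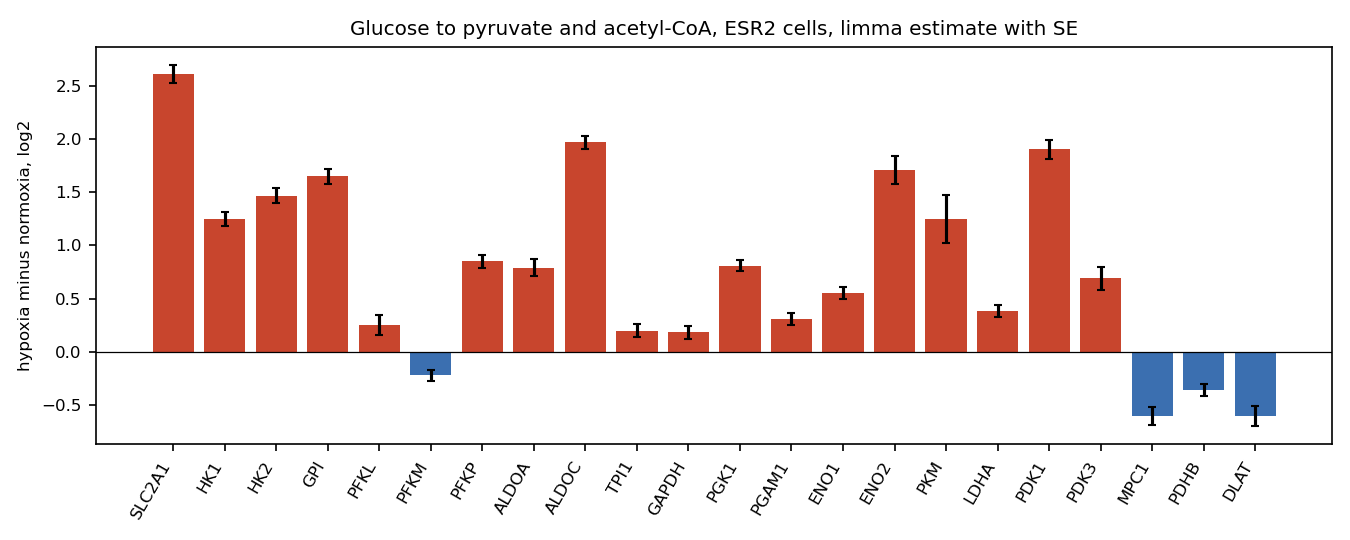
Hypoxia minus normoxia in ESR2 cells (log2, limma estimate with standard error) for genes of glucose uptake, glycolysis and pyruvate entry, in pathway order from left to right. Red bars rose and blue bars fell; SLC2A1 is the tallest at 2.61, and the 3 bars at the right end (MPC1, PDHB and DLAT) lie below 0.

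Secreted factors rose in part: 11 of 23 rose and 2 fell. The angiogenic factor VEGFA went from 8.49, 8.30 and 8.51 to 9.62, 9.69 and 9.49 (1.16 ± 0.09, adjusted p = 8.5e-10, limma), though 5 of its 10 probe sets were called. ANGPTL4, a lipoprotein lipase inhibitor, went from 4.09, 3.73 and 3.66 to 6.41, 6.27 and 5.99 (2.39 ± 0.12). The glycoprotein hormone STC2 rose by 2.02 ± 0.08, the growth factor PDGFA by 0.93 ± 0.10 and the stress cytokine GDF15 by 1.54 ± 0.16. The ephrin ligand EFNB2 rose by 1.06 ± 0.08.

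Collagen-modifying and basement membrane genes rose in 12 of 20 members measured, with 2 falls and a median of 0.38. The prolyl hydroxylases of collagen were the clearest. P4HA1 went from 7.75, 7.54 and 7.48 to 10.33, 10.12 and 9.89 (2.52 ± 0.10, adjusted p = 5.6e-15, limma), and P4HA2 rose by 1.81 ± 0.07. The lysyl hydroxylases PLOD1 and PLOD2, which prepare collagen for cross-linking, rose by 1.70 ± 0.17 and 1.51 ± 0.09. Transmembrane collagen COL13A1 rose by 1.59 ± 0.12, and the laminin chain LAMC1 by 0.90 ± 0.07. The lysyl oxidase LOXL1 fell by 0.87 ± 0.12.

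Oxygen-dependent enzymes of the JmjC family and TET enzymes, taken as 1 list, rose in 12 of 23 members and fell in 4. KDM3A, which removes H3K9 methyl groups, went from 8.05, 8.03 and 7.87 to 10.01, 10.04 and 9.94 (2.02 ± 0.07, adjusted p = 7.0e-16, limma). The H3K4 demethylase KDM5B rose by 1.41 ± 0.15 and KDM4A by 0.80 ± 0.08. The nucleolar oxygenases RIOX1 and RIOX2, which act on ribosomal proteins, fell by 0.81 ± 0.10 and 0.50 ± 0.07.

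Mitophagy receptors rose with the HIF targets. BNIP3 went from 9.61, 9.61 and 9.57 to 11.21, 11.22 and 11.22 (1.62 ± 0.06, adjusted p = 1.3e-14, limma) and BNIP3L from 8.72, 8.49 and 8.35 to 10.46, 10.30 and 10.21 (1.81 ± 0.11). PINK1, the kinase that marks damaged mitochondria, rose by 0.98 ± 0.12 and the autophagy receptor OPTN by 0.76 ± 0.07. In all, 13 of 30 autophagy genes rose and 2 fell, with the conjugating enzyme ATG3 lower by 0.46 ± 0.07. In the BCL2 family 8 of 21 rose and 3 fell (5 rose when probe sets of a gene were averaged). The pro-apoptotic BCL2L11 (BIM) rose by 1.21 ± 0.10 and BIK by 0.89 ± 0.11, and BAD fell by 0.57 ± 0.09.

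Mitochondrial genes mostly moved down or stayed, by small amounts. Of 37 complex I genes 17 fell and 1 rose, with a median of -0.15. NDUFB7 fell by 0.55 ± 0.07, NDUFB1 by 0.51 ± 0.06 and NDUFV2 by 0.43 ± 0.06. Of 40 genes of complexes II to V 15 fell and 2 rose, and the 2 that rose both encode succinate dehydrogenase subunits, SDHC (0.50 ± 0.08) and SDHA (0.45 ± 0.06). These counts depended on the fit: without the other groups, 11 of complex I and 6 of complexes II to V fell, and without hypoxia replicate 2, 11 of complex I fell. In the citric acid cycle 5 of 17 fell, among them IDH3B (-0.56 ± 0.06) and SUCLG2 (-0.71 ± 0.09), and DLST and IDH2 rose by 0.69 ± 0.07 and 0.58 ± 0.09. Of 17 fatty acid oxidation genes 4 rose, 6 fell and 7 were not called, against 14.4% higher and 18.2% lower over all genes. The list had a median of -0.12. Among the rises, CPT1A, the gate of fatty acid entry into mitochondria, rose by 1.12 ± 0.07.

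Genes of the mitochondrial ribosome, of ribosome biogenesis and of the proteasome fell in more than 60% of their members measured. Of 43 mitochondrial ribosomal proteins 29 fell and 1 rose, with a median of -0.31, and MRPL20 fell from 11.52, 11.40 and 11.48 to 10.54, 10.60 and 10.74 (-0.84 ± 0.06, adjusted p = 4.2e-10, limma). Of 55 genes of ribosome biogenesis 35 fell and 1 rose (median -0.32). RRP15 fell by 1.13 ± 0.10, LTV1 by 0.84 ± 0.08, NOP16 by 0.75 ± 0.08 and PNO1 by 0.66 ± 0.06, all of them assembly factors of the ribosomal subunits. Subunits and factors of RNA polymerases I and III, which transcribe ribosomal and transfer RNA, fell in 15 of 34 members and rose in 2, with POLR1E lower by 0.81 ± 0.07. The proteins of the cytosolic ribosome itself did less: 10 of 68 fell, 1 rose and 57 were not called, with a median of -0.05. Over all genes 18.2% fell and 14.4% rose, so falls were not more frequent in this list in the main fit. The 10 became 5 to 21 under other fits. Of 28 proteasome genes 19 fell and none rose (median -0.27), for example PSMD6 by 0.53 ± 0.06 and PSMD14 by 0.43 ± 0.06. Among translation initiation factors EIF5 fell from 10.44, 10.35 and 10.22 to 9.32, 9.38 and 9.25 (-1.02 ± 0.09), on all 7 of its probe sets.

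Growth-related synthesis genes followed a mixed course. Of 21 genes of purine and pyrimidine synthesis 12 fell and 4 rose: the mitochondrial adenylate kinase AK3 fell by 1.01 ± 0.06, CTPS1 by 0.49 ± 0.06 and UMPS by 0.42 ± 0.06, whereas AK4, a known HIF target, rose by 1.17 ± 0.08. Sterol synthesis and uptake genes fell in 10 of 22 members and rose in 2. HMGCS1, at the start of the mevalonate pathway, fell by 1.05 ± 0.10 and DHCR7, at the end of sterol synthesis, by 0.53 ± 0.08. INSIG2, which retains the sterol-sensing complex in the endoplasmic reticulum, rose by 1.11 ± 0.10. Of 21 genes of lipid storage 5 rose, 5 fell and 11 were not called, against 14.4% higher and 18.2% lower over all genes. HILPDA, which blocks lipolysis at lipid droplets, rose by 1.10 ± 0.08 and the droplet coat protein PLIN2 by 0.59 ± 0.06. The polyamine enzyme ODC1 fell by 0.43 ± 0.07, and its antizyme OAZ2 rose by 0.83 ± 0.08.

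Cell cycle genes fell in part. Of 51 DNA replication genes 21 fell and 4 rose (11 fell when probe sets of a gene were averaged), and of 49 mitosis genes 18 fell and 6 rose. The replication kinase subunit DBF4 fell by 0.92 ± 0.08 and the polymerase subunit POLE2 by 0.89 ± 0.09. ASPM, a spindle pole protein, fell by 1.16 ± 0.17 and KIF20B by 1.26 ± 0.12. In the list of G1 cyclins and CDK inhibitors 6 of 28 rose and 4 fell, against 14.4% and 18.2% over all genes. The inhibitor CDKN1C (p57) went from 7.04, 6.62 and 6.95 to 8.64, 8.25 and 8.50 (1.59 ± 0.11, adjusted p = 2.7e-10, limma), the inhibitor CDKN2B rose by 1.44 ± 0.11 and the pocket protein RBL2 by 1.70 ± 0.13. MXI1, an antagonist of MYC, rose by 0.95 ± 0.08 and MYC itself by 0.24 ± 0.06. UNG, which removes uracil from DNA, rose by 1.44 ± 0.14. In its DNA repair list 8 of 42 rose and 12 fell, against 14.4% and 18.2% over all genes.

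Feedback genes of the ERK pathway rose in 12 of 22 members and fell in 4, with a median of 0.34. The ERK phosphatases DUSP4, DUSP5 and DUSP6 rose by 1.50 ± 0.06, 1.34 ± 0.08 and 1.22 ± 0.08. DUSP4 read 8.88, 8.84 and 8.89 in normoxia and 10.47, 10.34 and 10.31 in hypoxia. The EGF receptor inhibitor ERRFI1 rose by 1.08 ± 0.07 and SPRY1 by 1.19 ± 0.11. Immediate early and AP-1 factors rose in 15 of 25 members and fell in 1 (median 0.37). FOSL2 rose by 2.25 ± 0.12, JUN by 1.71 ± 0.19, FOS by 1.68 ± 0.13 and EGR1 by 1.03 ± 0.11. The arrays of JUN were uneven in hypoxia, at 8.80, 8.51 and 7.51, and those of FOS ran at 8.34, 7.82 and 7.56, with replicate 3 lowest in both. Among chemokine and cytokine receptors 14 of 26 rose and 1 fell (9 rose when probe sets of a gene were averaged), with TNFRSF21 at 1.08 ± 0.07 beside CXCR4.

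Genes tied to YAP, actin and TGF-beta signalling rose in part. In the Hippo and YAP list 13 of 27 rose and 4 fell. CCN1 went from 6.50, 6.50 and 6.47 to 9.25, 8.68 and 8.58 (2.35 ± 0.15, adjusted p = 2.7e-11, limma), and CCN2 from 6.17, 6.13 and 6.26 to 7.90, 7.56 and 7.52 (1.47 ± 0.12). Both are matricellular targets of YAP, and tissue factor F3 rose by 1.14 ± 0.08. Of 48 actin genes 21 rose and 3 fell, with PDLIM5 at 1.02 ± 0.08, gelsolin (GSN) at 0.85 ± 0.08 and vinculin (VCL) at 0.78 ± 0.06. Of 26 genes of BMP and TGF-beta feedback 11 rose and 1 fell, among the rises the inhibitory SMADs, which damp these signals. SMAD6 went from 4.53, 4.22 and 4.71 to 6.45, 6.37 and 6.20 (1.85 ± 0.12), and SMAD7 from 3.32, 3.63 and 3.55 to 5.33, 4.88 and 4.84 (1.52 ± 0.11). For each of them 1 of 3 probe sets was called. Of 18 genes of the urokinase system and serpins 9 rose and 4 fell, among the rises F3, PLAU (1.25 ± 0.06) and its receptor PLAUR (0.93 ± 0.08).

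Some mesenchymal and some epithelial genes rose side by side. Vimentin (VIM) went from 8.82, 8.61 and 8.69 to 10.30, 10.33 and 10.36 (1.62 ± 0.08, adjusted p = 2.6e-13, limma), SNAI2 rose by 1.38 ± 0.08, S100A4 by 1.38 ± 0.07 and L1CAM by 1.43 ± 0.11. E-cadherin (CDH1), which classical transition programmes lower, went from 6.92, 6.67 and 6.80 to 8.46, 8.25 and 7.70 (1.34 ± 0.13, adjusted p = 1.6e-08), on 1 of 2 probe sets. P-cadherin (CDH3) rose by 0.95 ± 0.07, claudin CLDN4 by 0.68 ± 0.09 and the keratins KRT18 and KRT8 by 0.78 ± 0.06 and 0.93 ± 0.18. In the lists, 10 of 25 epithelial-mesenchymal genes rose and 4 fell, with a median of -0.024. Of 32 junction genes 14 rose and 1 fell, and of 19 desmosome and keratin genes 8 rose and none fell. The stem cell and Wnt list rose in 11 of 24 members with no fall, including CD44 (0.95 ± 0.07, all 10 probe sets), SOX9 (0.71 ± 0.10) and AXIN2 (0.66 ± 0.10). The integrin ITGAE fell from 10.63, 10.55 and 10.72 to 9.43, 9.52 and 9.61 (-1.11 ± 0.07).

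Of 42 interferon-related genes 9 rose and 10 fell, with a median of -0.005, against 14.4% higher and 18.2% lower over all genes. Several interferon-induced genes fell: besides CXCL10 and IFIT2, OASL fell by 1.15 ± 0.12, IFIT1 from 9.54, 9.51 and 9.50 to 8.92, 8.78 and 8.56 (-0.76 ± 0.08, adjusted p = 1.0e-07, limma) and ISG15 by 0.46 ± 0.06. OAS3 rose by 0.79 ± 0.14, IFI6 by 0.75 ± 0.11, UBE2L6 by 0.63 ± 0.11 and the regulator IRF2 by 0.61 ± 0.11. The interferon-stimulated response element, searched on both strands of the same 250 bases, was found for 22 of 34 list members with a promoter in the table (64.7%) and for 3.52% of all tested genes with one. The stretches of CXCL10 and IFIT1, which both fell, are shown because they hold the element. It stands in capitals, as searched or as its reverse complement.
CXCL10, chr4:76023687-76023746, - strand: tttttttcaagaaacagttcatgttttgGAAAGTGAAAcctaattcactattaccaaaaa
IFIT1, chr10:89392486-89392545, + strand: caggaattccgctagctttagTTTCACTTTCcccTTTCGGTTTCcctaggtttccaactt

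Cytosolic chaperones rose in 12 of 24 members and fell in 1: DNAJA4 rose by 1.23 ± 0.08, HSPH1 by 0.68 ± 0.10 and BAG3 by 0.57 ± 0.07. HSPA1B rose by 0.48 ± 0.07, but its near-identical copy HSPA1A may share the signal. In the endoplasmic reticulum the disulfide isomerase PDIA3 rose by 1.32 ± 0.10, while the co-chaperones DNAJB11 and SDF2L1 fell by 0.53 ± 0.06 and 0.57 ± 0.07. Of 30 genes of the ATF4 amino acid response 5 rose and 7 fell, against 14.4% and 18.2% over all genes, so the list stood near the background. In this list ATF3 rose by 0.65 ± 0.09 and ATF5 fell by 0.77 ± 0.08. The cold-inducible RNA-binding proteins fell. CIRBP went from 10.28, 10.23 and 10.20 to 9.31, 9.60 and 9.48 (-0.77 ± 0.10, adjusted p = 3.8e-06, limma). RBM3 fell by 1.25 ± 0.06 on its brighter probe set, but its other probe set was called in the opposite direction. The zinc exporter SLC30A1 fell by 1.02 ± 0.12. BHLHE40, a circadian repressor and HIF target, rose by 1.80 ± 0.14.

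Known estrogen-responsive genes, a list of 32 measured, rose in 9 and fell in 4, against 14.4% higher and 18.2% lower over all genes. The receptor tyrosine kinase RET had the largest named rise beside STC2, from 3.63, 3.54 and 3.35 to 5.37, 5.45 and 5.14 (1.81 ± 0.14, adjusted p = 1.3e-09, limma), on 1 of 3 probe sets. SIAH2, a ubiquitin ligase that acts on EGLN proteins, rose by 0.65 ± 0.10, SGK1 by 0.92 ± 0.12 and the kinase SGK3 fell by 0.51 ± 0.09.

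**Figure D4:**
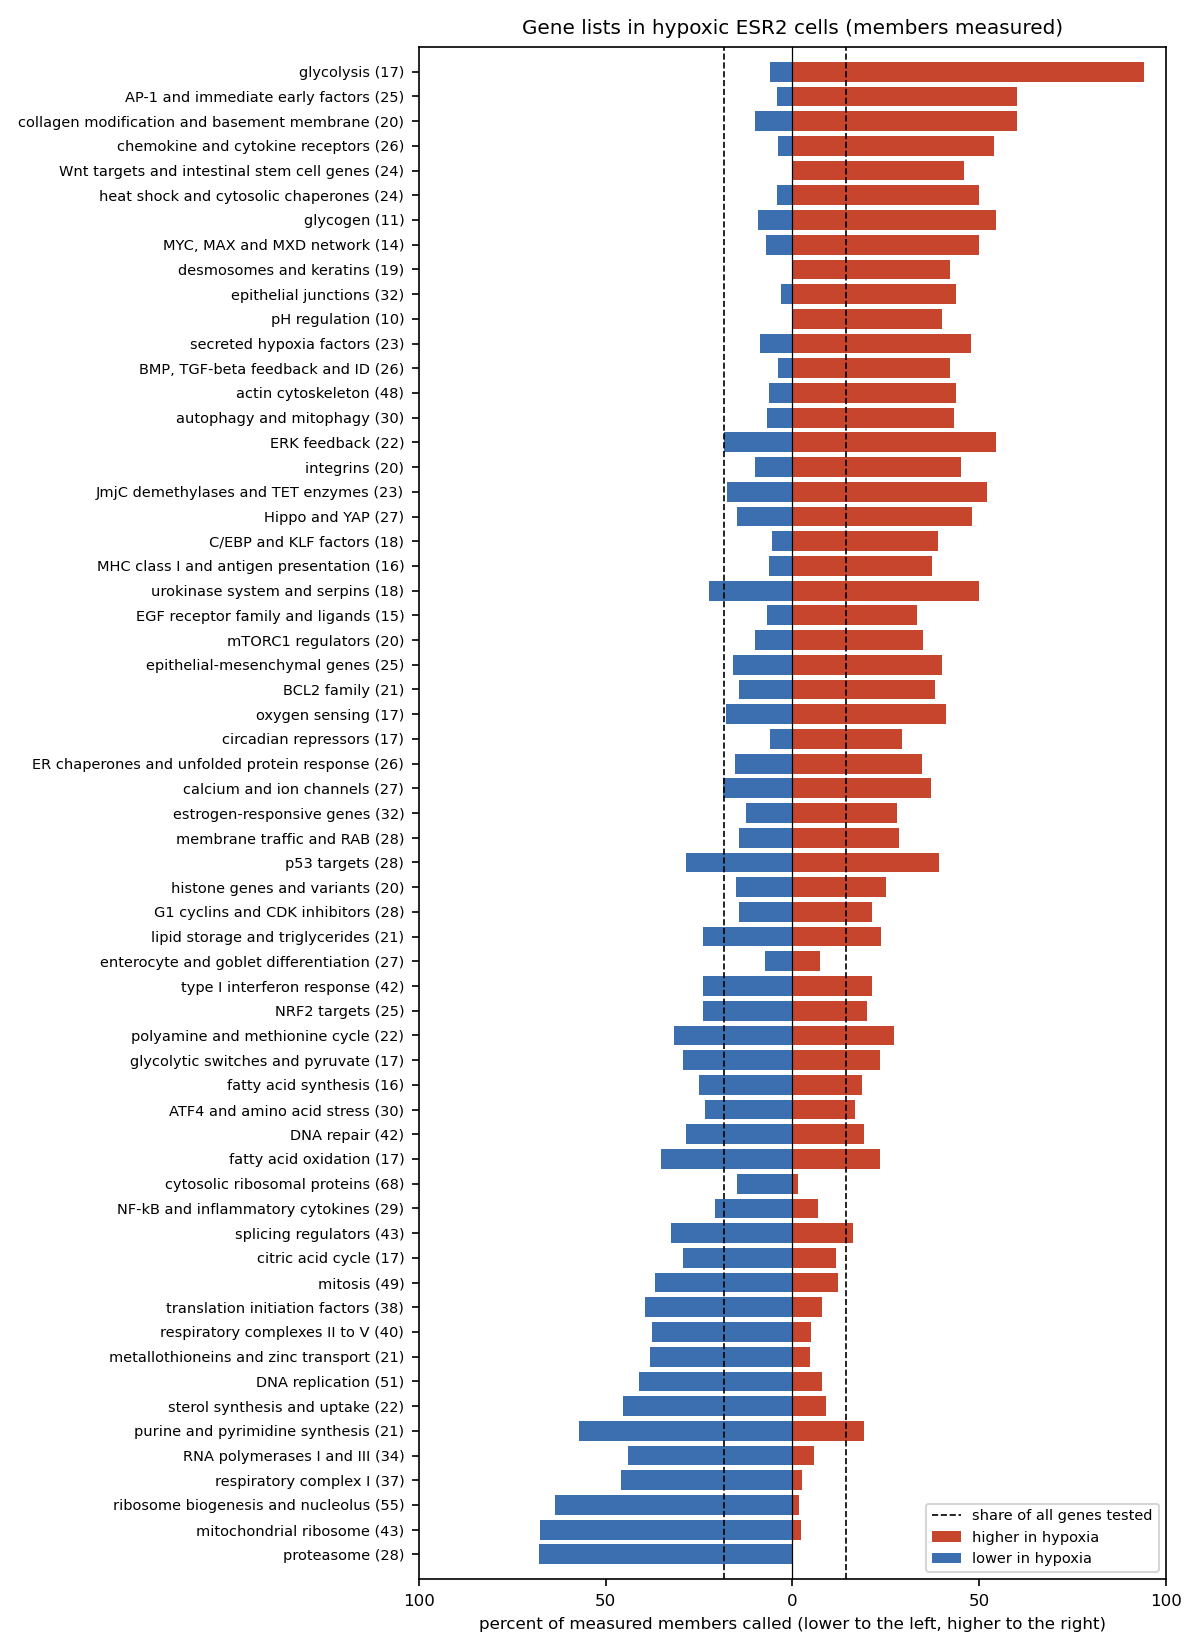
Percent of the measured members of each gene list called higher (red, to the right) or lower (blue, to the left) in hypoxic ESR2 cells at an adjusted p below 0.05, with the number measured in brackets. Dashed lines give the shares over all genes tested, 14.4% higher and 18.2% lower. Glycolysis lies at the top with 16 of 17 higher, and the proteasome, mitochondrial ribosome and ribosome biogenesis lists lie at the bottom.

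Puromycin selection and GFP are given for ESR2 cells only, so the transgene cannot be told apart from transduction and selection in comparisons with parental cells. The same hypoxia contrast in parental cells uses other arrays, and the difference between the contrasts (ESR2 minus parental) was tested as an interaction. It was called for 5597 genes (30.7%), 2987 (16.4%) with a higher and 2610 (14.3%) with a lower change in ESR2 cells, and for 5762 without parental normoxia replicate 2. More than 2-fold differences were 580 higher (3.18%) and 307 lower (1.68%). In parental cells 6844 genes were called (37.5%; 16.4% higher and 21.2% lower, 2.5% and 3.33% by more than 2-fold). Of the 225 genes that rose more than 2-fold in ESR2 cells, 183 (81.3%) also rose and 12 fell in parental cells, and these 183 were 6.13% of all that rose there. Of the 93 that fell more than 2-fold, 66 (71.0%, 1.71% of the parental falls) also fell and 6 rose. Of 516 genes singled out by the naming rule, 301 had a called interaction. Leaving out parental normoxia replicate 2 ended 17 of those calls, among the genes named above those of CIRBP, CA12 and RPL27A, added 21 calls and turned no sign.

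Several classical HIF targets rose less in ESR2 than in parental cells. ANKRD37 rose by 4.73 in parental cells (interaction -1.42 ± 0.12, adjusted p = 2.8e-09, limma), DDIT4 by 4.83 (interaction -1.69), ADM by 4.66 (interaction -1.55) and NDRG1 by 4.43 (interaction -1.17). The interaction of DDIT4 was -1.46 without parental normoxia replicate 2. The normoxic level of ADM was higher in ESR2 than in parental cells (0.79, adjusted p = 1.1e-05 over all probe sets, limma). That of ANKRD37 was not called as different (-0.03, adjusted p = 0.87, limma). VEGFA and HILPDA followed, with interactions of -0.68 and -1.64. Among 17 glycolysis genes 5 interactions were lower, none was higher and 12 were not called, against 14.3% lower and 16.4% higher over all genes. The interactions of SLC2A1 (-0.24) and KDM3A (-0.07) were not called. That of CXCR4 was -0.40 ± 0.15 (adjusted p = 0.052, limma), and it was called without parental normoxia replicate 2 (-0.44, adjusted p = 0.042, limma).

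HIF1A fell in both cell types, and further in ESR2 cells. Parental arrays read 10.11, 9.65 and 10.03 in normoxia and 9.36, 9.45 and 9.47 in hypoxia (-0.50 ± 0.09), and the interaction was -1.22 ± 0.13 (adjusted p = 1.2e-07, limma). Its 8 probe sets gave interactions from -1.76 to -1.22. EP300 and HIF1AN went opposite ways: EP300 fell by 0.87 in parental cells (interaction 1.65 ± 0.21) and HIF1AN by 0.60 (interaction 1.06 ± 0.10). CITED2 had an interaction of 0.81, or 0.47 without parental normoxia replicate 2.

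Several matrix and cytoskeleton genes that rose in ESR2 cells changed less in parental cells. SERPINH1 read 7.75 ± 0.23 (SD, n = 3) in normoxic and 7.83 ± 0.20 in hypoxic parental cells (interaction 2.00 ± 0.16, adjusted p = 3.4e-09, limma). CCN1 (interaction 1.88 ± 0.21), CCN2 (1.76 ± 0.16), ARPC3 (1.98 ± 0.17), RGS4 (1.70 ± 0.18) and HAS3 (1.53 ± 0.18) had higher interactions too. Of these, CCN1 (0.47), ARPC3 (0.41) and HAS3 (0.42) also rose in parental cells, where the changes of CCN2 (-0.29) and RGS4 (0.30) were not called; CCN2 was called as a fall there without parental normoxia replicate 2 (-0.33, adjusted p = 0.047, limma). The normoxic level of SERPINH1, CCN1 and CCN2 was lower in ESR2 than in parental cells: CCN1, for example, started at 6.50, 6.50 and 6.47 against 7.66, 7.74 and 7.38. SMAD7 (interaction 1.69 ± 0.16), ID2 (1.88 ± 0.12), SGK1 (2.08 ± 0.18) and BCL2L11 (1.30 ± 0.14) also rose in ESR2 cells, where their parental changes were -0.17, -0.98, -1.16 and -0.09. UNG and the homeobox gene DLX2 rose by 1.44 and 1.17 in ESR2 cells and fell by 0.72 and 1.11 in parental cells, and their interactions were 2.16 and 2.27. Most of the other highest interactions came with large parental falls instead: MAT2A changed by -0.24 in ESR2 and by -3.13 in parental cells, FSAF1 by -0.47 and -2.90. For DIDO1, with the highest interaction (3.08), 2 probe sets were called in the opposite direction in hypoxic ESR2 cells, and the direction of DIDO1 and MAT2A turned there when probe sets were averaged.

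CXCL10 and MAL2 fell in ESR2 cells from levels that parental cells did not have. CXCL10 read 4.32, 4.42 and 4.27 in normoxic parental cells, about the level it fell to in hypoxic ESR2 cells, and 4.48, 4.51 and 4.33 in hypoxic ones (interaction -2.21 ± 0.19, adjusted p = 6.0e-09, limma). MAL2 read 4.04, 3.88 and 4.24 in normoxic parental cells (interaction -2.57 ± 0.23), and GASK1B 4.40, 4.07 and 4.33 against 7.80, 8.02 and 7.36 in normoxic ESR2 cells (interaction -2.08 ± 0.21). MAL2 (0.66), GASK1B (1.02) and ZNF226 (0.85) rose in parental cells, where ZNF226 fell by 1.36 in ESR2 cells. MTHFD2L fell by 1.52 in ESR2 cells against a parental change of 0.15 (interaction -1.67 ± 0.15). Some of the lowest interactions came with rises in both cell types instead. OSMR, a receptor of oncostatin M, rose by 0.39 in ESR2 and 2.80 in parental cells (interaction -2.41). The cyclin CCNG2 rose by 1.40 and 3.42 (interaction -2.02). In normoxia CCNG2 was higher in ESR2 than in parental cells (1.07, adjusted p = 1.1e-04 over all probe sets, limma). Of 55 ribosome biogenesis genes 47 fell in parental cells, with a median of -0.76 against -0.32 in ESR2 cells, and 30 had a higher and 1 a lower interaction. Of 22 sterol genes 12 rose in parental cells, where 10 fell in ESR2 cells, and 12 had a lower interaction.

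**Figure D5:**
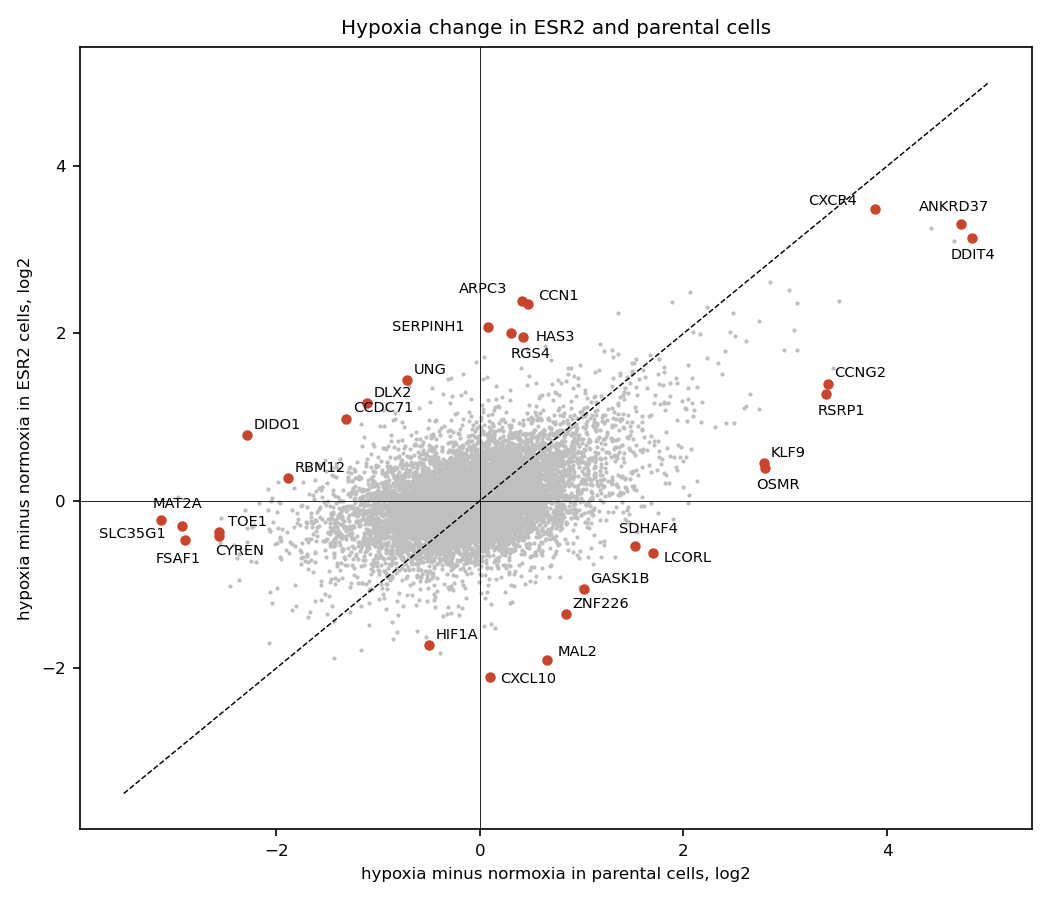
Hypoxia minus normoxia (log2) in parental cells (x axis) and ESR2 cells (y axis) for 18239 genes (grey), with genes named for large interactions and leading changes in red. The dashed line marks equal change; ANKRD37 and DDIT4 lie below it, ARPC3, CCN1 and SERPINH1 lie above it near a parental change of 0, and CXCL10 and MAL2 lie at the bottom.

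Hypoxia was also applied to ESR2 cells with 10 nM estradiol, on other arrays, 3 of which carried the high 3′ minus 5′ index given above, so estradiol and that index cannot be told apart in what follows. There 9534 genes (52.3%) were called, 29.6% higher and 22.6% lower (2.48% and 5.3% by more than 2-fold), and the difference of the hypoxia changes, with minus without estradiol, was called for 7991 (43.8%; 25.4% higher and 18.4% lower, 0.822% and 4.89% by more than 2-fold). Of the 225 rises over 2-fold 186 (82.7%, 3.44% of all rises with estradiol) also rose and 11 fell, and of the 93 falls 86 (92.5%, 2.08% of all falls with estradiol) also fell and 1 rose. CXCR4 rose by 3.47 and HIF1A fell by 2.07 with estradiol, against 3.48 and 1.72 without. MAL2 changed by -0.21 with estradiol against -1.91 without (interaction 1.69 ± 0.23, adjusted p = 4.7e-06, limma), its hypoxic arrays with estradiol reading 7.52, 7.63 and 7.38. BST1 changed by -0.09 against -1.70, and the interferon regulator IRF7 rose by 2.36 against 0.50. In the other direction the adaptor GRB10 changed by -1.27 with estradiol and by 1.55 without, and the coactivator ZMIZ1 by -2.20 and 0.71.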

How the data were processed

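Total RNA of 24 samples was hybridised to Affymetrix 3′ expression arrays. The values deposited by the authors are log2 signals, normalized with RMA (affy) per the submitters' processing notes, with no version given. The table held 49386 probe sets, of which 45253 carried 1 gene symbol in the platform annotation, 1327 several and 2713 none, beside 93 control probe sets. Each of 18239 genes was represented by its brightest probe set, judged by the mean of the 24 arrays, so changes of other transcripts can be missed. All columns belonged to this series. A model of 8 group means over the 24 arrays was fitted with limma 3.58.1 (R 4.3.3), giving 16 residual degrees of freedom, and p-values were adjusted by the Benjamini-Hochberg method over all genes, with 0.05 as the threshold; the model was tested on simulated data. Fold changes come from differences of log2 means.

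Named genes were the 25 largest rises and falls with non-overlapping arrays, up to 6 called members per list with the smallest p plus called members against the list's majority, all oxygen-sensing genes and estrogen receptors, and the 10 (by ESR2) or 5 (by estradiol) most positive and most negative interactions. ALDOA, ENO1, ENO2, GAPDH, PDHB, PFKL, PFKP and TPI1 lie outside this rule and were picked with their values known. The members and the 65 lists were chosen with earlier results of these data known, so list counts are descriptions. Motifs were matched in RefSeq promoters by gene symbol (14492 of 18239 genes). Alternatives were renormalization, median centring, a filter on dim genes, averaging or separate testing of probe sets, an intensity trend, array weights, fits of only the groups compared, a replicate block, the 3′ minus 5′ index as a covariate and leaving out arrays; leaving out the hypoxic ESR2 arrays with estradiol was added after seeing the data. Figures were drawn with matplotlib 3.10.9.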

Additional observations from a re-analysis of the deposited data

Results flagged for a closer look

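The difference between the hypoxia change of ESR2 cells and that of parental cells was tested as an interaction for every gene (limma, adjusted p below 0.05) and was called for 5597 genes. Values below are ESR2 minus parental on the log2 scale, for genes named by the size of their change or of the interaction. Among genes that rose in hypoxic ESR2 cells, the change was lower than in parental cells for ANKRD37 (-1.42), NDRG1 (-1.17), DDIT4 (-1.69), ADM (-1.55), P4HA1 (-0.51), ANGPTL4 (-1.13), SLCO1B3 (-0.74), TMEM45A (-0.60), TMEM158 (-1.05), STC2 (-0.43), ALDOC (-0.54), CCNG2 (-2.02), OSMR (-2.41), KLF9 (-2.35) and RSRP1 (-2.13). Among genes that rose, it was higher for ARPC3 (1.98), GOLGA8A (0.49), CCN1 (1.88), FOSL2 (0.89), SERPINH1 (2.00), RGS4 (1.70), HAS3 (1.53), UNG (2.16), DIDO1 (3.08), CCDC71 (2.29), DLX2 (2.27) and RBM12 (2.15). Among genes that fell in ESR2 cells, it was lower for CXCL10 (-2.21), MAL2 (-2.57), RPL27A (-0.45), IFIT2 (-1.43), CRACR2A (-0.61), HIF1A (-1.22), DLEU2 (-0.80), FBXO4 (-1.10), CMTM1 (-0.76), SLC7A11 (-0.95), MTHFD2L (-1.67), EEA1 (-1.54), UHMK1 (-1.58), DDC (-0.59), GCFC2 (-1.01), CCT6B (-1.17), KLK8 (-0.56), ZNF226 (-2.20), CALML4 (-1.02), NIPBL (-1.06), LCORL (-2.33), GASK1B (-2.08) and SDHAF4 (-2.06). Among genes that fell, it was higher for MAT2A (2.90), SLC35G1 (2.63), FSAF1 (2.43), TOE1 (2.18) and CYREN (2.14). Without parental normoxia replicate 2 the calls of RPL27A (-0.36, adjusted p = 0.111, limma) and SLCO1B3 (-0.44, adjusted p = 0.0544, limma) were lost. RPL27A also lost its call with median centring, with every probe set, in a fit of only the groups compared and without several other single arrays, and SLCO1B3 in the fit of only the groups compared and without ESR2 normoxia replicate 1. With the probe sets of a gene averaged, STC2 turned from -0.43 to 0.64 (adjusted p = 4.37e-05, limma; range over the other alternatives 0.000883 to 0.0153). The GOLGA8A call was also lost under several alternatives, among them a further quantile normalization (0.37, adjusted p = 0.141).

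The difference between the hypoxia changes of ESR2 cells with and without estradiol was called for 7991 genes. It was higher with estradiol for MAL2 (1.69), BST1 (1.62), IRF7 (1.86), AKR1B10 (1.66) and PPP3R1 (1.60) and lower for ZMIZ1 (-2.90), GRB10 (-2.82), KANK1 (-2.74), FHOD3 (-2.73) and MAGOHB (-2.51). The 3 hypoxic ESR2 arrays with estradiol had a 3′-5′ index of 3.42, 4.01 and 3.80, above every other array except parental normoxia replicate 2 (4.34), so estradiol and the index cannot be told apart in these values.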

How the results depend on the processing

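Of 516 named genes, 507 were called for hypoxia in ESR2 cells; 97 of these lost the call under at least 1 alternative and 10 turned direction. The turned values came from averaging the probe sets of a gene: DIDO1 -0.13, DUSP8 0.057, GPER1 0.049, HSPA4 0.012, MAT2A 0.073, MDH2 0.016, SLC35G1 0.083, SLC4A7 -0.23, SPRED1 0.054, TAF1C -0.17 and, for the interaction by ESR2, STC2 0.64. Leaving out 1 array of the groups compared at a time gave 4699 to 6328 genes for hypoxia in ESR2 cells (2197 to 2703 higher, 2502 to 3625 lower). In the same way 4997 to 5817 were called for the interaction by ESR2 and 6848 to 8475 for that by estradiol. With estradiol the range was 8401 to 9043 and in parental cells 6205 to 6843. Leaving out parental normoxia replicate 2, which shares only the estimate of spread, called 6802 for hypoxia in ESR2 cells (2949 higher, 3853 lower). Testing each of 45253 probe sets, more features than genes, called 12179 in ESR2 cells (5923 higher, 6256 lower), 11058 for the interaction by ESR2 (5870 and 5188), 16448 for that by estradiol (8653 and 7795), 20717 with estradiol (11124 and 9593) and 14596 in parental cells (6926 and 7670). Array weights called 3958 lower interactions by ESR2, and the 3′-5′ index as a covariate left 2741 higher interactions by estradiol; the cause was not tested. The share of rises among the called genes was 44.11% and ran from 42.12% to 49% over the alternatives. Of 2340 list counts under alternatives, 227 moved by a factor of more than 1.5, up or down, or from none to some. With the replicate number as a block, 5783 genes were called, and 5716 of these were called in the same direction without it. Same-numbered arrays correlated at 0.066, 0.12 and 0.21 in their deviations, and differently numbered ones at -0.16 to 0.093. Each normoxic array correlated best with the hypoxic array of its own number, whereas hypoxia replicate 1 correlated best with normoxia replicate 2 (0.093). Whether the numbers pair the samples was thus not settled, and the main fit did not pair them. Among 4305 called genes with another probe set, 2184 had another called the same way and 195 only the opposite way. ESR2 and EGLN3 had mean log2 signals of 3.84 and 4.16; the files give no detection calls, so how far they stood above background is unknown.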
